A study of Rattus norvegicus with 18 samples.

Results

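The cytosolic ribosomal protein genes were followed through RNA sequencing of primary neuroglial cultures, in which neurons and glia of the rat brain cortex grow side by side. Members were taken by name alone: every row of the gene tables called Rpl or Rps followed by a number, with or without a final a or x, plus Rpsa, Rplp0, Rplp1 and Rplp2. In the tables used here this gave 70 of 31463 rows, 41 for the large and 29 for the small ribosomal subunit. They do not cover the whole ribosome: Rpl7, Rpl27a, Rpl36, Rpl37a, Rpl41, Rps18 and Rps26 were not analysed here. Rpl38 was listed at 0 in every library after rounding and failed the filter on low counts, which left 69 members for the tests.

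The 18 libraries formed 6 groups of 3, labelled Control, Glutamate, Memantine, Glutamate_vesicles, Glutamate_secret and Glutamate_BPC. Control cultures received nothing that the labels name. Excitotoxicity, the injury of neurons by excess glutamate, was modelled on day 10 in vitro with 100 µM glutamate, and RNA was taken 4 h later. Memantine, which blocks NMDA-type glutamate receptors, served at 100 µM as the positive control. Glutamate is missing from the Memantine label, although the design text places that group inside the model. Vesicles, proteins of a size fraction and the whole secretome, all prepared from human glial progenitor cells, were given a day ahead of glutamate. The labels do not say whether secret or BPC was the protein fraction, so these names are used as they stand. Every group held a library numbered 1, 2 and 3. The paper speaks of unrelated cultures for its experiments in general. It names a day covariate for a plot of intact cultures with and without vesicles, all without glutamate. For its plot of the glutamate groups it mentions only batch-corrected counts. Neither the paper nor the labels tie a library or a replicate number to a culture, a day or a batch. The p-values therefore measure only the spread between these libraries, which may be technical.

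A ribosome is built from ribosomal RNA (rRNA) and about equal copies of each ribosomal protein, and cells keep the proteins in step with one another. Transcripts of these genes are short, abundant and long-lived, and in neurons they are found in axons and dendrites as well as in the cell body. Most start with a run of pyrimidines right at the cap, the terminal oligopyrimidine (TOP) motif, through which the mTOR kinase and the RNA-binding protein Larp1 control their translation and stability.

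Some annotated start sites are shown, because it is here that TOP transcripts carry their defining letters. They are those of members with a long pyrimidine run, of Rpsa, of Rpl3 and Rpl7a, whose changes described below were small, and of the elongation factor Eef1a1. This choice favours long runs. Of members read but not shown, Rps6 and Rpl11 have a purine at the annotated start and Rpl5 a run of 2. Each line gives 15 bases before and 15 bases from the start in RefSeq, assembly GRCr8, 5′ to 3′ on the gene's own strand. Capitals mark the unbroken run of C and T over the annotated start; a line without capitals has a purine there.
Rplp1, chr8:71290858-71290887, minus strand: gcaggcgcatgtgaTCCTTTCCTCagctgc
Rps15, chr7:10068101-10068130, minus strand: cgctgacaccgCTTCCTTTTCCCagcagcc
Rplp0, chr12:46718376-46718405, minus strand: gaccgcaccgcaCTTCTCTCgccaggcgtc
Rpsa, chr8:128728864-128728893, plus strand: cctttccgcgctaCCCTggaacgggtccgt
Rpl3, chr7:113507976-113508005, minus strand: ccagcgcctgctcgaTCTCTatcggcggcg
Eef1a1, chr8:88225055-88225084, minus strand: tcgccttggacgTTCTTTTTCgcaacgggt
Rpl7a, chr3:30637121-30637150, plus strand: ctctcctccagccgagcaagatggtgagtg
Rplp1, Rps15 and Rplp0 carried a C at the annotated start followed by at least 4 pyrimidines, whereas Rpsa, Rpl3, Rpl7a and Eef1a1 did not. Of the 55 members with a start in the table, 21 (38.2%) had this form, against 630 of 24206 gene starts in all (2.60%). When the motif was allowed to begin up to 5 bases to either side, 35 of 55 members (63.6%) and 16.8% of all starts held it. The search covered the sense strand only, the shifted windows overlap, and a match describes the letters at an annotated start, which may not be the start used in these cultures.

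Libraries held between 8409574 and 17206354 counts. Rows for rRNA took from 3.04% of the counts (Glutamate_secret 2) to 43.0% (Control 1), and the scaling factors of the trimmed mean of M values (TMM) ran from 0.417 in Control 1 to 1.58 in Memantine 2. Control 1 therefore stood apart from the other libraries. Without it, 0 members were called in the comparisons with Control, and 68, 0 and 68 for numbers 2 against 1, 3 against 1 and 3 against 2 in the tests described below. With all libraries kept, 61.2%, 1.51% and 41.9% of all tested genes were called in these comparisons of numbers. Markers of neurons and of glia were present. Among vessel and fibroblast markers, Rgs5, Dcn and Lum were at 0 in 16, 12 and 10 of 18 libraries, and all 6 endothelial markers together reached at most 0.00071% of the counts.

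Between 1.92% and 15.6% of a library's counts fell on ribosomal protein genes, an 8.11-fold range with a median of 8.41%. In Control the share was 6.81%, 5.04% and 5.23% in libraries 1, 2 and 3. In Glutamate it was 13.7%, 2.74% and 7.85%. In Memantine it was 8.64%, 1.92% and 10.2%. The range inside Glutamate and inside Memantine was thus wider than the distance between any pair of group means. The vesicle group had 13.2%, 5.09% and 8.68%. Glutamate_secret had 15.6%, 5.44% and 12.9%. Glutamate_BPC had 11.7%, 8.18% and 10.4%, and was the only treated group in which each library lay above each Control library. Counting error was negligible beside this spread: the 95% Wilson interval of the lowest share ran from 1.91% to 1.93%, and covers counting error only.

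**Figure D1:**
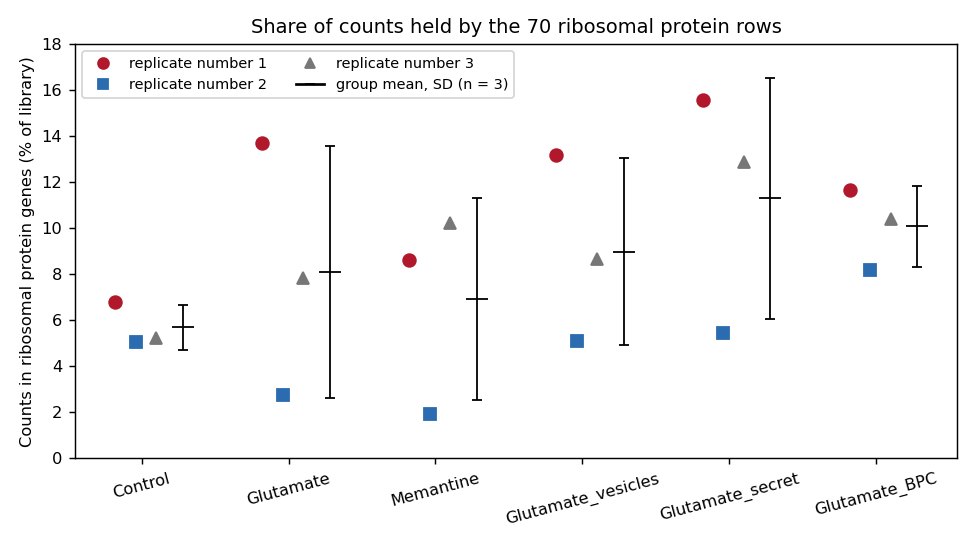
Share of all counts (%, linear axis from 0) on the 70 ribosomal protein rows in each of 18 libraries, by group; symbols give the replicate number and black bars the group mean with the SD (n = 3). In every group the library numbered 2 is the lowest, and Memantine 2 is the lowest of all at 1.92%.

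No difference of the ribosomal protein genes between the groups passed a test. For the share of counts the pairwise tests could not give a p below 0.05, whatever the difference. The mean share of these genes was 5.69% ± 0.972 (SD, n = 3) in Control and 8.09% ± 5.47 in Glutamate, 2.40 percentage points apart (exact permutation test, two-sided, p = 0.6). Memantine stood at 6.92% ± 4.40, Glutamate_vesicles at 8.98% ± 4.05, Glutamate_secret at 11.3% ± 5.25 and Glutamate_BPC at 10.1% ± 1.76. The difference of Glutamate_BPC from Control, 4.39 points, gave p = 0.1 in the exact test, the smallest value that 3 against 3 libraries allow. Without Control 1 the differences from Control were 2.96 points for Glutamate, 1.79 for Memantine, 3.85 for the vesicles, 6.16 for Glutamate_secret and 4.95 for Glutamate_BPC. Over the 9 comparisons the Benjamini-Hochberg adjusted p lay between 0.771 and 0.8. With the rRNA rows taken out of the denominator, Control 1 rose to 11.9% and the ranges of Glutamate_BPC and Control overlapped. Set side by side by number, the share was higher in 3 of 3 pairs for Glutamate_secret against Glutamate, where the numbers paired the libraries, and likewise for the vesicles, paired too, and for Glutamate_secret and Glutamate_BPC against Control. The exact sign-flip test gave p = 0.25 for each of these, the smallest that 3 pairs allow. A permutation test of all 6 groups gave F = 0.779 and p = 0.576, and p = 0.109 when values were exchanged only between libraries of equal number.

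Gene by gene, 0 of 69 members were called in any of the 9 comparisons by edgeR's quasi-likelihood test at an adjusted p below 0.05. Few other genes were called either, 0.0139% of 14398 tested genes for Glutamate_vesicles against Control and 0% in the other 8 comparisons. DESeq2 and edgeR's likelihood-ratio test also called 0 members, although they called up to 489 and up to 223 of all genes in a comparison. The quasi-likelihood F test over the 6 groups called 0 members and 0.00695% of all genes. At an unadjusted p below 0.05 the edgeR test found 1 member, and in 1 comparison only. In other comparisons the member of smallest p was further from the threshold. It was Rps10 for Memantine against Glutamate (−0.70, SE 0.67), for Glutamate_secret against Glutamate (0.78, SE 0.67) and for Memantine against Control (−0.51, SE 0.67). Rps14 came first for the vesicles against Glutamate (−0.68, SE 1.12), Rpl7a for Glutamate_BPC against Glutamate (0.33, SE 0.53) and Rpl3 for the vesicles against Control (0.55, SE 0.45).

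In some of these comparisons all members nevertheless lay on the same side of 0, with directions that in part hung on single libraries. In others the signs were mixed, as for the vesicles against Glutamate (−0.68 to 0.32) and against Control (−0.54 to 0.78). The members rose and fell together across libraries, so their equal signs are not independent observations. For Glutamate against Control the fitted log2 fold changes of all 69 members were positive, with a median of 0.34 beside 0.08 for all tested genes. Without Glutamate 1 that median was −0.58, and without Control 1 it was 1.36. For Memantine against Glutamate all 69 were negative, with a median of −0.45, which became 0.37 without Glutamate 1. For the vesicles against Glutamate the median was −0.19, although the mean share was 0.889 points higher and the members' mean log2 CPM 0.19 higher. Against Glutamate the other medians were 0.75 for Glutamate_secret and 0.10 for Glutamate_BPC. Against Control they were −0.12 for Memantine, 0.18 for the vesicles, 1.08 for Glutamate_secret and 0.46 for Glutamate_BPC, and without Control 1 they were 0.88, 1.17, 2.05 and 1.49. Only the medians of Glutamate_secret against Glutamate and against Control, and of Glutamate_BPC against Control, stayed above 0 whichever library was left out. For Glutamate_secret all 69 members were positive too, from 0.23 to 1.11 against Glutamate and from 0.49 to 1.72 against Control. With the replicate number as a block the median for Glutamate_BPC against Glutamate, where the numbers paired the libraries, was 0.63. With the log2 rRNA percent in the model the medians for Memantine and for the vesicles against Glutamate turned to 0.33 and 0.75, and that for Memantine against Control to 0.53, again with 0 members called. These comparisons share the Glutamate or Control libraries and are not independent of one another.

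Ranges in CPM (counts scaled to a common library size in the usual unit of 1e6 counts, after TMM) of 2 members did not overlap between Glutamate_BPC and Control, against 24.9% of all tested genes. They are named here after their values were seen. Rpl3, a large-subunit protein that lines the site of peptide bond formation, read 966, 868 and 843 CPM in Control and 1500, 1275 and 1562 CPM in Glutamate_BPC. Rpl7a, another large-subunit protein, read 804, 643 and 630 CPM in Control and 1206, 1002 and 1233 CPM in Glutamate_BPC. In the other 8 comparisons no member had group ranges apart. Among all genes the share with ranges apart was 2.86% for Memantine, 6.27% for the vesicles, 3.41% for Glutamate_secret and 7.13% for Glutamate_BPC against Glutamate. Against Control it was 12.2% for Glutamate, 2.35% for Memantine, 19.5% for the vesicles and 15.9% for Glutamate_secret. Summed neuron markers moved with some of these groups: they took 0.174% to 0.574% of the counts in Control, 0.107% to 0.137% in Glutamate, 0.113% to 0.485% in Memantine, 0.13% to 0.161% with vesicles, 0.0696% to 0.12% in Glutamate_secret and 0.104% to 0.161% in Glutamate_BPC. Fibroblast and mural markers took 0.00595% to 0.0242% in Control, 0.00957% to 0.0361% in Glutamate and 0.00778% to 0.0419% in Memantine. They took 0.0406% to 0.0595% with vesicles, 0.0433% to 0.0559% in Glutamate_secret and 0.0374% to 0.0525% in Glutamate_BPC. This sum rested mainly on Tagln, with a median of 4608.5 counts per library, beside 71.5 for Pdgfrb, the next of the list. The part of the neuron, fibroblast and mural markers in the members' values was not tested, and in bulk cultures fewer cells of a type cannot be told apart from less RNA per cell.

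The replicate number, in contrast, went with clear differences in the ribosomal protein share: libraries numbered 2 were the lowest of their group in every case, in Control by a narrow margin (5.04% against 5.23% in number 3). The mean share was 11.6% ± 3.30 (SD, n = 6) in libraries numbered 1, 4.73% ± 2.21 in those numbered 2 and 9.21% ± 2.60 in those numbered 3. Number 2 lay below number 1 in 6 of 6 groups, by 6.85 points on average, and below number 3 in 6 of 6 groups, by 4.48 points. Each of these gave p = 0.03125 in an exact sign-flip permutation test, the smallest it can give with 6 pairs, and an adjusted p of 0.0469 over the 3 number comparisons. Number 3 lay below number 1 in 5 of 6 groups, by 2.38 points (exact p = 0.0938). Permuting the numbers within groups gave F = 14.7 and an exact p of 0.000514. Outside the rRNA rows the means were 14.3%, 5.04% and 11.1%, with the same calls, and there the ranges of numbers 1 and 2 did not overlap.

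Against number 1, 68 of 69 members were lower in number 2 by edgeR with group and number in the model, and 0 were higher. Here 61.2% of all tested genes were called, 28.5% lower and 32.8% higher, so that most of the transcriptome differed between these libraries. The median log2 fold change of the members was −2.29, beside 0.12 for all genes, and the members ran from −3.46 to −0.62. In number 3 against number 2, 68 of 69 members were higher, with a median of 1.63; the background was 41.9% called, 22.1% higher and 19.8% lower. Rplp1 (2.36, SE 0.56), Rps20 (2.36, SE 0.78) and Rpl36a (2.32, SE 0.54) changed most here, and Rpl3 (0.70, SE 0.24), Rps7 (0.92, SE 0.28) and Rpl7a (0.93, SE 0.28) least among those called. The exception was Rps10 (0.50, adjusted p = 0.351). In number 3 against number 1, 0 members were called (8 had an unadjusted p below 0.05), against 1.51% of all genes, and the median was −0.65. Rpl14 had the smallest p there (−0.83, SE 0.36, adjusted p = 0.183), and no member had CPM ranges apart (background 1.8%). These comparisons share libraries and are not independent. Leaving out any 1 library left 66 to 69 members called for number 2 against 1 and 64 to 68 for number 3 against 2.

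**Figure D2:**
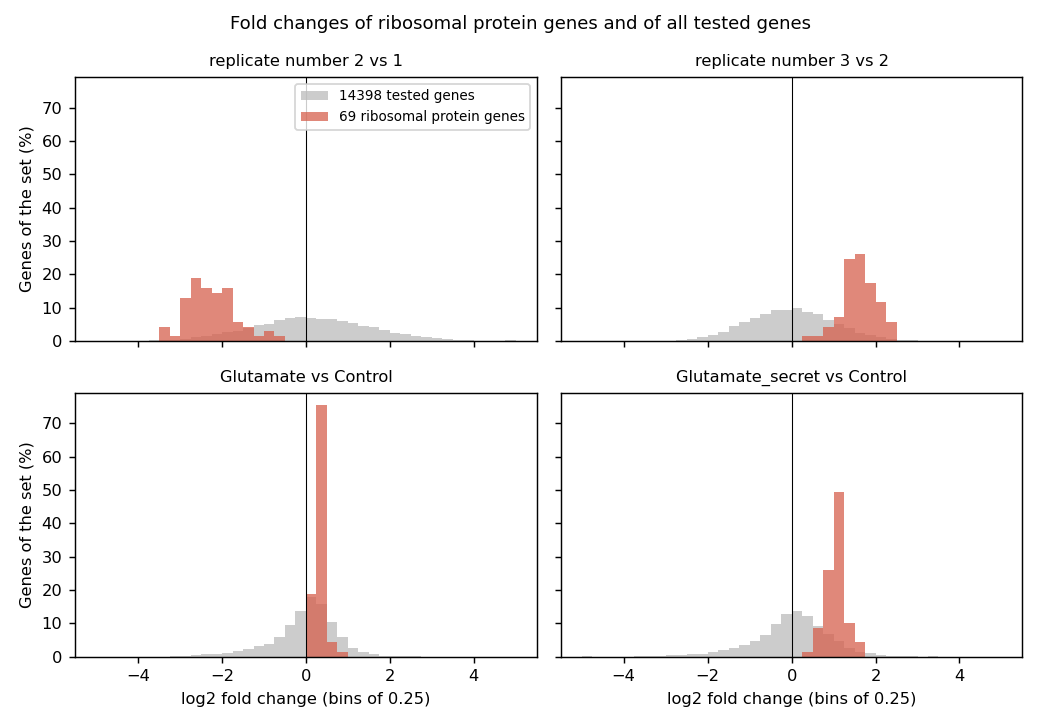
Distribution of log2 fold changes (bins of 0.25) for the 69 tested ribosomal protein genes (red) and all 14398 tested genes (grey) in 4 comparisons, as the percent of each set. The members form a narrow peak around a median of −2.29 for number 2 against 1 and of 1.63 for number 3 against 2, whereas for Glutamate against Control the peak lies at 0.34, inside the bulk of genes. For Glutamate_secret against Control the median is 1.08, and the bin starting at 1 holds 49.3% of members and 4.62% of all genes, although no member was called there.

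The proteins of the ribosomal stalk, which recruit the elongation factors, were lower in number 2 to unequal degrees. Rplp1 read 4579 to 12857 CPM (median 7606) in number 1, 190 to 2374 CPM (median 941) in number 2 and 1157 to 14354 CPM (median 3744) in number 3. The ranges of numbers 1 and 2 did not meet, and that of number 3 overlapped both. Its log2 fold change for number 2 against 1 was −3.27 (SE 0.57, adjusted p = 0.000371). Rplp2, the partner of Rplp1 in the stalk, changed by −2.68 (SE 0.51), and Rplp0, which anchors the pair to the ribosome, by −1.83 (SE 0.35). Rplp0 read 3031 to 6320 CPM in number 1 and 584 to 2290 CPM in number 2.

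Small-subunit members fell likewise. Rpsa, also known as a laminin receptor and the member with most counts in these libraries, read 6101 to 12287 CPM in number 1, 586 to 2593 CPM in number 2 and 1499 to 14372 CPM in number 3 (number 2 against 1, −2.80, SE 0.47). Rps6, the substrate of S6 kinase, read 1884 to 4374 CPM and 297 to 1417 CPM in numbers 1 and 2 (−2.10, SE 0.37). Rps2, also among the members with most counts, changed by −1.77 (SE 0.37), Rps3, at the entry of the mRNA channel, by −1.71 (SE 0.34), Rps4x, encoded on the X chromosome, by −1.91 (SE 0.32), and Rps19, needed to mature the subunit's rRNA, by −2.43 (SE 0.43). Rps27a, made as a fusion with ubiquitin, changed by −2.59 (SE 0.44). The widest change of any member was that of Rps29, a small zinc-binding protein, which read 2951 to 6544 CPM in number 1 and 85.2 to 1116 CPM in number 2 (−3.46, SE 0.59). Rps10 was the only tested member not called, at −0.97 (SE 0.42, adjusted p = 0.0535).

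Large-subunit members spanned the widest interval. Rpl15 had the smallest p, with 966 to 1752 CPM in number 1, 117 to 414 CPM in number 2 and 428 to 1686 CPM in number 3 (number 2 against 1, −2.43, SE 0.34, adjusted p = 0.000342). It was also the only member with ranges apart between numbers 3 and 2 (background 1.88%). Rpl5 and Rpl11, which join the ribosome with 5S rRNA and can bind Mdm2, changed by −1.90 (SE 0.33) and −2.51 (SE 0.39). Rpl23, another Mdm2 binder, changed by −1.57 (SE 0.32), Rpl13a, which can leave the ribosome to silence inflammatory mRNAs, by −2.92 (SE 0.49), Rpl22 by −1.99 (SE 0.36), and Rpl39, at the exit tunnel, by −2.01 (SE 0.38). Rpl36a stood at the lower end (−3.34, SE 0.55). At the upper end were Rpl10, which joins late in the subunit's assembly (−1.34, SE 0.28), Rpl7a (−0.83, SE 0.27) and Rpl3 (−0.62, SE 0.24), the smallest change of all. Rpl3 read 879 to 1671 CPM in number 1 and 500 to 1275 CPM in number 2, and these ranges overlapped. For 60 of 69 members the CPM ranges of numbers 1 and 2 did not meet, against 29.4% of all genes; the exceptions included Rpl3, Rpl7a, Rpl8, Rpl9, Rpl23a, Rpl39, Rps7 and Rps10. Members with the motif at the annotated start had a median of −2.33 (n = 21) and those without it −2.29 (n = 33).

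The abundance of rRNA moved with the numbers too. Rows for rRNA took 13.4% to 43.0% of counts in number 1, 3.04% to 8.15% in number 2 and 6.58% to 26.6% in number 3. Across the 18 libraries the share of ribosomal protein counts rose with the log2 rRNA percent (Pearson r = 0.585, permutation p = 0.0111; Spearman rho = 0.612, permutation p = 0.00821). Without Control 1 and Glutamate_secret 2, the libraries farthest from the median, r was 0.759. Within numbers 1, 2 and 3, with 6 libraries each, r was −0.608, 0.236 and 0.638, and after centring on the number means it was 0.086. The permutation p of these r values was 0.283, 0.625 and 0.175, and rho was −0.086, 0.2 and 0.657. With 6 libraries each, and Control 1 among those numbered 1, the sign within a number is thus uncertain. Taken outside the rRNA rows the share gave r = 0.740 (permutation p = 0.00052) and rho = 0.775 (permutation p = 0.00025), and −0.237, 0.280 and 0.780 within the numbers, the last with an exact permutation p of 0.0306 before any adjustment, and r was 0.392 after centring. Both relations were adjusted together, which left r at adjusted p of 0.0111 and 0.00104. When the log2 rRNA percent was added to the edgeR model, 0 members were called between any numbers; the median for number 2 against 1 was then −1.43, and of all 14398 genes 12 were called. The number and the rRNA percent overlap so far in these libraries that their parts cannot be told apart.

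**Figure D3:**
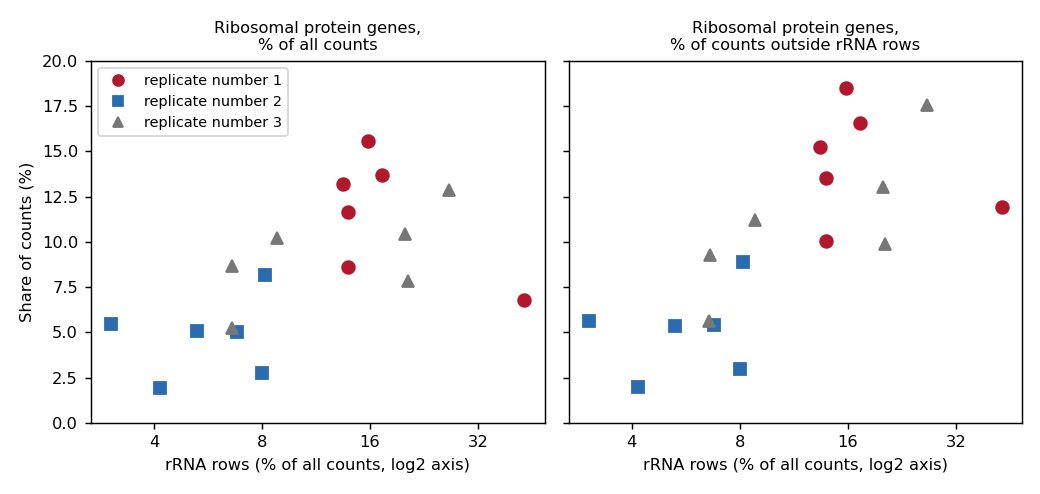
Share of counts on ribosomal protein genes (%, linear axis) against the percent of counts on rRNA rows (log2 axis) in 18 libraries, with all counts (left) or counts outside rRNA rows (right) as the denominator. Libraries numbered 2 gather at the lower left, and Control 1 lies alone at 43.0% rRNA.

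Within the family, the members kept close to one another but not exactly. Each member's log2 CPM correlated with the mean of the others across the 18 libraries at r between 0.819 (Rps10) and 0.999 (Rpl32), with a median of 0.993, as a description of points that share their library. A member's share of the summed family counts had a coefficient of variation between 4.43% (Rps9) and 58.7% (Rpl3), with a median of 18.9% over all libraries and of 11.7%, 12.2% and 12.6% within numbers 1, 2 and 3. The 3 most variable were Rpl3, at 0.591% to 4.11% of the family, Rps10 and Rpl7a. Counts on large-subunit members exceeded those on small-subunit members in every library but Control 1. The ratio was 0.994 in Control 1 and at most 1.32, and averaged 1.13 ± 0.0948 (SD, n = 6), 1.28 ± 0.0382 and 1.19 ± 0.0818 in numbers 1, 2 and 3. It was higher in number 2 than in number 1 in 6 of 6 groups, by 0.142 (exact sign-flip p = 0.03125, adjusted p = 0.0938), and did not differ detectably among the 6 groups (permutation p = 0.804).

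To see which members departed from the rest, edgeR was run with the summed member counts as library size. For number 2 against 1 it called 33 of 69 members, 18 higher and 15 lower relative to the family. On this scale 88.3% of all genes pass, since nearly every other gene shifts against the family, and an adjusted p is then hardly larger than an unadjusted one. Relative to the family, Rpl3 was higher by 1.74 (log2, SE 0.29), Rpl7a by 1.502 (SE 0.25), Rps10 by 1.33 (SE 0.30), Rps7, which can bind Mdm2, by 1.28 (SE 0.25) and Rpl4 by 0.95 (SE 0.21). Rplp0 was higher by 0.50 (SE 0.15), while its stalk partner Rplp1 stood at −0.998 (SE 0.21). The other low members ran from Rps29 at −1.23 (SE 0.25) and Rpl36a at −1.04 (SE 0.23), through Rps27, Rps12, Rps15, Rps28, Rpl13a, Rpl28, Rpl37, Rpl35a, Rpsa, Rps16 and Rps15a, to Rps24 at −0.34 (SE 0.15). The higher set held 10 large-subunit and 8 small-subunit members, and the lower set 6 and 9. For number 3 against 2 the same fit called 14 of 69 members, 7 in each direction (background 74.9%), for number 3 against 1 it called 0 (background 0.827%), and it called 0 in each of the 9 group comparisons. Transcript lengths were not used here, so levels were not compared between genes.

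**Figure D4:**
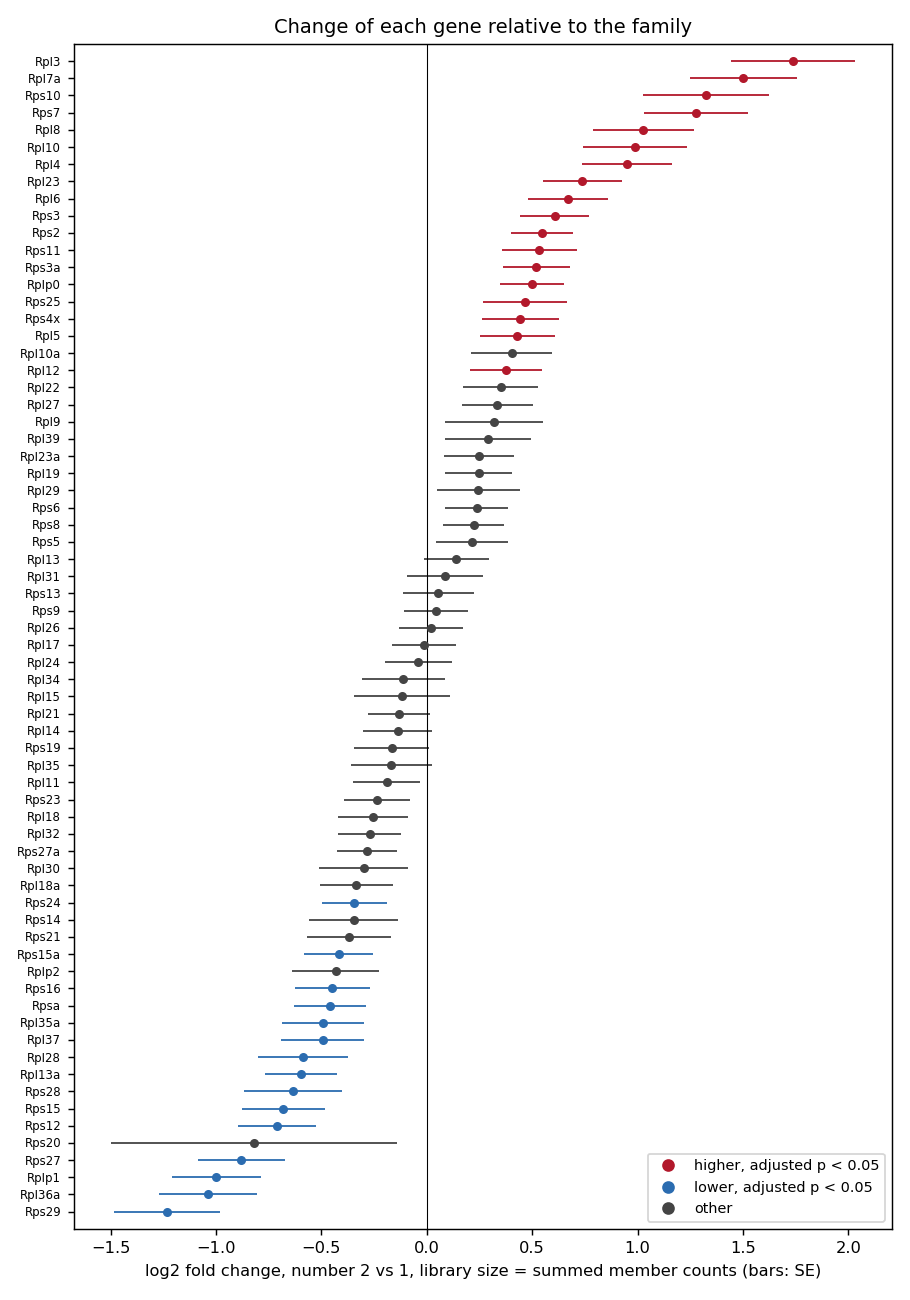
Log2 fold change of number 2 against number 1 for ribosomal protein genes, with the summed counts of the family as library size; bars are the SE. Rpl3 lies highest at 1.74 and Rps29 lowest at −1.23; colours mark an adjusted p below 0.05, a threshold that 88.3% of all genes pass on this scale.

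Genes tied to the ribosome outside the family were read from lists set by function. Of 8 tested paralogs and ubiquitin fusions, 7 were lower and 1 higher in number 2 than in number 1, with a median of −1.93, where 28.5% of all genes were lower and 32.8% higher. Fau, whose product is cut into a ubiquitin-like protein and a ribosomal protein, changed by −3.32 (SE 0.55). Rpl22l1, the paralog of Rpl22, changed by −2.25 (SE 0.40) and Rps27l by −1.45 (SE 0.33). The testis paralog Rpl10l was the exception, at 1.25 (SE 0.38). Nuclear-encoded subunits of oxidative phosphorylation were lower in 65 of 70 cases and higher in 2 (median −2.18), and mitochondrial ribosomal proteins lower in 65 of 73 (median −1.65), so that these mitochondrial families fell together with the cytosolic ribosomal proteins. The 13 subunits encoded in the mitochondrial genome showed 3 higher and 2 lower, with a median of 0.39.

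Other TOP genes and the translation machinery moved less uniformly. Of 16 tested translation factors and TOP genes, 11 were lower and 2 higher (median −0.77). The list was set by function: of its 12 annotated starts, 0 had the motif at the start and 4 (33.3%) held it within 5 bases to either side. Rack1, a scaffold bound to the small subunit, changed by −1.81 (SE 0.32) and Tpt1, a classical TOP transcript, by −0.69 (SE 0.29). Eef1a1 and Eef2, elongation factors whose transcripts are also TOP mRNAs, were not called, at 0.25 (SE 0.27) and −0.26 (SE 0.22). Eef1a1 read 1942 to 5638 CPM in number 1 and 4038 to 5346 CPM in number 2, and Eef2 1327 to 2166 CPM and 1394 to 1685 CPM. Pabpc1 was higher, at 2.00 (SE 0.34). Of 20 ribosome biogenesis genes, 14 were lower and 2 higher (median −0.73). Fbl, which methylates rRNA, changed by −1.68 (SE 0.30), Ncl, a nucleolar protein, was not called at −0.51 (SE 0.24), and Polr1a, the catalytic subunit of the polymerase that makes rRNA, was higher by 1.25 (SE 0.28).

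Of 12 upstream regulators, 8 were higher and 2 lower in number 2, with a median of 1.35, beside 32.8% higher and 28.5% lower and a median of 0.12 among all genes. Larp1 read 10.7 to 22.1 CPM in number 1, 46.3 to 167 CPM in number 2 and 7.43 to 54.2 CPM in number 3; numbers 1 and 2 did not overlap, and the log2 fold change was 2.67 (SE 0.37). Mtor was higher by 1.39 (SE 0.37), Tsc1, an inhibitor of mTOR, by 2.42 (SE 0.46) and Myc by 1.32 (SE 0.31), while Eif4ebp1, the translational repressor that mTOR inactivates, changed by −0.75 (SE 0.28). In number 3 against 2 the same lists read 5 of 8 paralogs, 67 of 70 oxidative phosphorylation subunits, 63 of 73 mitochondrial ribosomal proteins, 7 of 16 translation factors and 4 of 20 biogenesis genes higher, and 7 of 12 regulators lower, where 22.1% of all genes were higher and 19.8% lower. The biogenesis genes were thus near the background there. In the group comparisons 0 genes of any list were called.

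**Figure D5:**
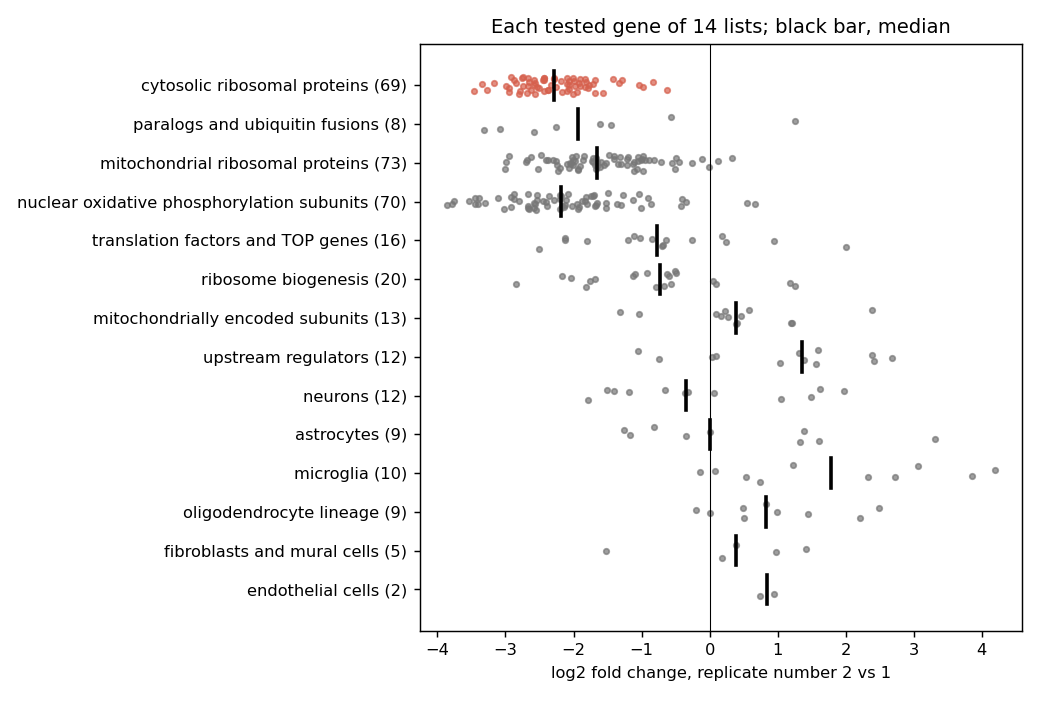
Log2 fold change of number 2 against number 1 for each tested ribosomal protein gene and each tested gene of the other lists (numbers of genes in brackets); black bars are medians. Cytosolic ribosomal proteins (median −2.29), oxidative phosphorylation subunits (−2.18) and mitochondrial ribosomal proteins (−1.65) lie to the left, and upstream regulators (1.35) and microglial markers (1.78) to the right.

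Some cell type markers also differed between the numbers. For number 2 against 1, neuron markers were higher in 4 and lower in 5 of 12 cases, astrocyte markers in 4 and 3 of 9, microglial markers higher in 6 of 10, oligodendrocyte-lineage markers higher in 5 of 9, and fibroblast and mural markers in 1 and 1 of 5. Of the endothelial markers 2 were tested and 0 called. Among all genes 32.8% were higher and 28.5% lower. These lists, like those of the paralogs and the upstream regulators, are too short to read their counts against those shares. Summed astrocyte markers took 0.172% to 0.79% of counts in number 1 and 0.569% to 1.14% in number 2, oligodendrocyte-lineage markers 0.0158% to 0.078% and 0.087% to 0.203%, and microglial markers 0.00174% to 0.0118% and 0.00782% to 0.0449%. Their part in the members' values was not tested.

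Many ribosomal protein genes have processed copies in the genome, and reads can be divided among near-identical rows. The tables held 84 rows named as copies of ribosomal protein genes, 76 of them of 42 members; over all libraries together these rows held 0.838% of the counts, beside 8.23% on the members. For Rpl30, Rpl38, Rpl8, Rpl9, Rps10 and Rps20 the copies held more counts than the member itself, from 73.5% of the joint counts for Rpl30 to 100% for Rpl38, and the values of these members are uncertain. Rpl38 and Rps20 were also among the members with the lowest mean shares of the library. In single libraries the copy rows took 0.176% to 1.65% of counts. Adding them to the members left each comparison of the share on the same side of its threshold. For the 9 group comparisons this was fixed in advance, because 3 against 3 libraries allow no exact p below 0.1. Of the members that departed from the family, 11 of the 18 higher and 10 of the 15 lower had such copies.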

How the data were processed

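RNA of 18 libraries was measured. According to the paper's methods the authors used Trimmomatic and Cutadapt for trimming, Salmon for quantification against rat Ensembl transcripts and tximport for sums per gene; per the labels STAR and Salmon were used, on build rn6. The deposited values are expected counts (estimated counts per gene, unscaled), and each was rounded to a whole number. The tests had been planned for counts. Strand handling and the Salmon version are not given in the sources used here, and paper and labels name different sequencers and kits.

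Groups follow the labels' treatment. Genes passing filterByExpr (minimum count 10, total 15; 14398 genes) entered the tests of edgeR 4.0.16 (R 4.3.3): TMM scaling, quasi-likelihood F test, two-sided, Benjamini-Hochberg over all genes, adjusted p below 0.05. Group comparisons had 1 mean per group; number comparisons had group plus number. SE is the log2 fold change over the root of F. Shares were compared by exact permutation (3 against 3), exact sign-flip (6 pairs) or 100000 permutations with SciPy 1.17.1. CPM came from edgeR's cpm function, log2 values a prior count of 2. DESeq2 1.42.0 was an alternative. Scripts were tested on simulated data. rRNA rows (78) and start sequences come from RefSeq GRCr8, another build than the files'.

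Members, lists and tests were chosen with earlier results of these data known. Named were members of fixed roles, the 3 highest and 3 lowest fold changes among called members, the member of smallest p where none was called, and the extremes of share and variability. In each comparison the correlation of same-numbered libraries' deviations from their group means was computed. Every pair exceeded 0.1 for Memantine, Glutamate_secret and Glutamate_BPC against Glutamate and for the vesicles against Control, so that the numbers were taken to pair the libraries there. In the other comparisons the libraries numbered 3 fell short, for example at −0.12 for Glutamate and −0.45 for Glutamate_secret against Control. The comparisons of numbers thus include groups whose libraries the numbers did not pair throughout. Values of some genes that this rule names are not reported here.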

Additional observations from a re-analysis of the deposited data

Results flagged for a closer look

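Among 18 sets of 6 libraries of equal number, 1 value stood far from the others by Dixon's test: rRNA rows held 43.0% of the counts in Control 1, against 13.4% to 17.3% in the other libraries numbered 1. About 1 set in 20 is marked by chance. In the same library ribosomal protein genes held 6.81% of all counts and 11.9% of those outside rRNA rows.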

How the results depend on the processing

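No member was called in any of the 9 group comparisons or in the 6-group test under any alternative that was run, the replicate block (replicate number in the edgeR model, 0 members called in each) included. In the sign-flip test over pairs of equal number the share gave differences equal to the unpaired ones, for example 2.40 points for Glutamate against Control and 4.39 for Glutamate_BPC against Control, with p no lower than 0.25, the smallest that 3 pairs allow. The block changed no call of a member, although it raised the number of all genes called from 0 to 700 for Glutamate_secret against Control and from 2 to 538 for the vesicles; DESeq2 called 443 and 489.

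The counts of 68 members called between numbers 2 and 1 and of 68 between 3 and 2 were 0 and 0 with the rRNA percent in the model, which was added after seeing the data, and 33 and 14 with the summed member counts as library size; these settings answer other questions. They were 67 to 69 and 67 to 68 under the other alternatives that kept all libraries. The main fit called 61.2% and 41.9% of all tested genes between these numbers, so that all these counts stand on a high background. Without the 3 Control libraries, also added later, the differences in share were −7.87 and 5.33 points (exact p = 0.0625, adjusted p = 0.0938, the smallest p that 5 pairs allow), with 69 and 68 members called. On the mean log2 CPM scale, Memantine against Control turned from 1.23 points higher to −0.30.

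Leaving out each library moved the difference in share between −0.396 and 5.07 points for Glutamate against Control, −0.414 and 3.73 for Memantine, 1.19 and 5.23 for the vesicles, 3.46 and 8.53 for Glutamate_secret and 3.60 and 5.34 for Glutamate_BPC against Control, −3.84 and 1.63 for Memantine against Glutamate, −1.79 and 3.68 for the vesicles, 0.527 and 6.13 for Glutamate_secret and −0.687 and 4.78 for Glutamate_BPC against Glutamate. It moved number 2 against 1 between −7.87 and −6.04 and number 3 against 2 between 3.71 and 5.33, with exact p of 0.0625 throughout because 5 pairs remained. The median coefficient of variation ranged from 17.1% to 19.5%.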
